A study of Mus musculus with 7 samples.

Results

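MammU6, snoRNA135, snoRNA202, snoRNA429, U87 and Y1 are the reference small RNAs of a microRNA (miRNA) PCR panel. They were taken by name, as the assays of the deposited cycle table that carry no mouse miRNA prefix and are not the plant miRNA control, which gave 6 of 524 assays. The panel was run on 3 cultures of M1 macrophages and 4 aortas, to compare miRNAs of inflammatory macrophages with those of the vessel wall. The macrophages were grown for 7 days from bone marrow of C57BL/6 mice in medium conditioned by L929 cells. They were then stimulated with lipopolysaccharide (100 ng/ml, 14 hours) and interferon-γ (10 ng/ml, 6 hours). The aortas were untreated and are given as strain apoE-/-, whereas the series title calls the aortic tissue normal. All mice were female and 6 to 8 weeks old. Strain, treatment, culture and tissue therefore differ together between the groups and cannot be told apart, and no unstimulated macrophages were measured. Each sample is called a biological replicate in the labels, which do not say how many mice gave RNA to a sample. Total RNA of an aorta comes from smooth muscle, endothelium and other cells, and a change in the mix of cells cannot be told apart from a change in the RNA per cell.

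Reference small RNAs are measured beside miRNAs because PCR gives only relative amounts, and each miRNA is commonly expressed relative to a small RNA that is taken to be steady. MammU6 detects U6, the small nuclear RNA at the catalytic core of the spliceosome, which RNA polymerase III transcribes. The snoRNAs are C/D box small nucleolar RNAs, which are cut out of introns of host genes and guide the methylation of ribosomal RNA. Y1 is a small cytoplasmic RNA, transcribed by RNA polymerase III, that binds the Ro60 protein.

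In RefSeq's gene table for GRCm38.p6 all 6 names could be placed. The table lists snoRNA135 as a synonym of Snord65 and U87 as a synonym of Snord87. It gives the older names MBII-202 and MBII-429, of the same number as snoRNA202 and snoRNA429, to Snord68 and Snord100, and this match by number is less certain. Snord68 lies within Rpl13 and Snord100 within Rps12, both genes of ribosomal proteins. Snord87 lies within the non-coding gene Snhg6, where the protein-coding gene Mcmdc2 overlaps it, and Snord65 within the non-coding gene 2410006H16Rik. The table has the single entry Rny1 for Y1 and Rnu6 for U6, and neither overlaps another gene. The annotated lengths run from 48 bases for Snord68 to 111 bases for Rny1.

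Each well is described by its cycle threshold (Ct): the earlier the cycle in which product passed a set level, the more target there was. All 6 reference RNAs crossed by Ct 35, the limit of detection used here, in all 7 samples. MammU6 crossed first in every sample, followed by snoRNA202, snoRNA429 and snoRNA135. U87 came before Y1 in 6 samples, and in macrophage replicate 3 Y1 came first. The efficiency of each assay is not given in the sources used here, so a gap in Ct between assays is not a ratio of RNA amounts. Only the change of such a gap between samples is compared.

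The Ct of MammU6 was 14.7, 14.8 and 17.8 in macrophage replicates 1 to 3, against 15.1, 14.3, 12.6 and 13.1 in aorta replicates 1 to 4. Macrophage replicate 3 was the latest sample and the groups overlapped. For snoRNA202 the Ct was 16.6, 16.8 and 18.9 in macrophages, against 16.1, 17.4, 15.03 and 16.1 in aorta. For snoRNA429 it was 18.4, 18.5 and 20.8 in macrophages, against 16.3, 17.4, 15.8 and 16.7 in aorta. Among the 6, snoRNA429 alone had Ct values that did not overlap between the groups, and every macrophage sample was later. For snoRNA135 the Ct was 20.2, 20.4 and 22.7 in macrophages, against 22.0, 23.2, 20.2 and 21.0 in aorta, so that its groups covered the same span. U87 had a Ct of 22.4, 22.8 and 24.6 in macrophages, against 22.4, 24.0, 20.9 and 22.3 in aorta. Y1 had 22.4, 23.3 and 23.9 in macrophages, against 23.1, 26.2, 21.0 and 22.6 in aorta, where aorta replicate 2 was the latest of all 7 samples.

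**Figure D1:**
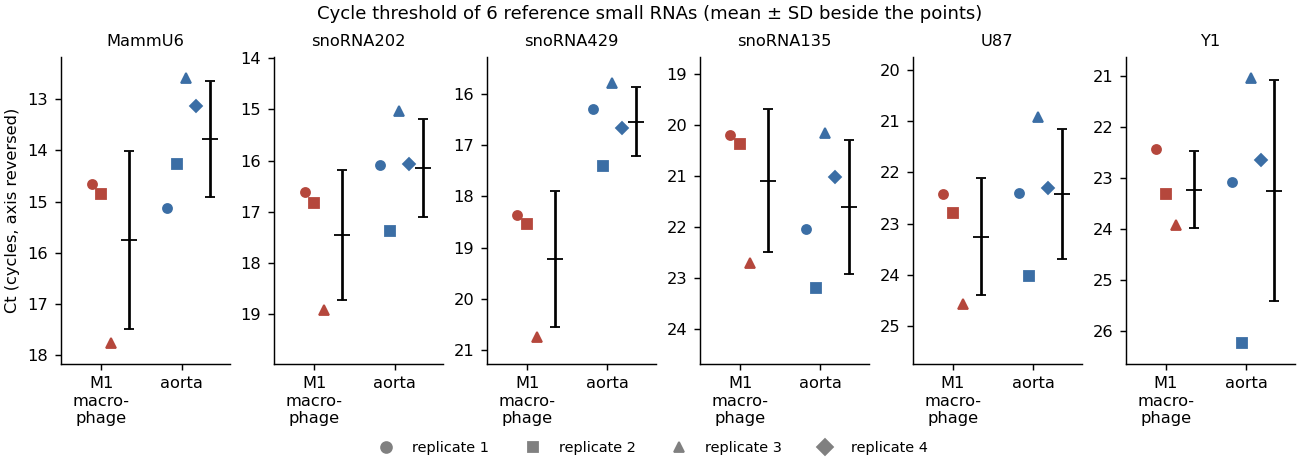
Cycle threshold of each reference small RNA (vertical axis in cycles, reversed so that more target is higher, every panel spanning 6 cycles) in M1 macrophages and aorta. Points are samples, with the mean and SD beside them (n = 3 macrophage and 4 aorta samples); macrophage replicate 3 is the latest macrophage sample for all 6 RNAs, and among the 6 snoRNA429 alone has no overlap between groups.

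The samples differed in mean Ct, and a difference in overall signal would move every Ct. Of the miRNAs, 296 crossed by the limit in every sample, and their mean Ct was 26.2 ± 1.35 (SD, n = 3) in macrophages and 23.6 ± 0.86 (SD, n = 4) in aorta, with macrophage replicate 3 the latest at 27.8. Averaged over the 6 reference RNAs, macrophages were later by 1.05 cycles, against 2.64 cycles for those miRNAs. The mean Ct of those miRNAs did not overlap between the groups either (25.4 to 27.8 in macrophages, 22.6 to 24.7 in aorta). For snoRNA429 macrophages were later by 2.69 cycles, near the value for the miRNAs. The share of single assays without overlap in Ct was not counted. Markers of smooth muscle and of myeloid cells were read as a check of the labels. miR-143, a smooth muscle miRNA, crossed at Ct 29.2 to 31.1 in macrophages and at 11.98 to 14.3 in aorta, and miR-223, a myeloid miRNA, at 15.99 to 19.01 in macrophages and 18.7 to 19.8 in aorta. Unscaled, miR-223 thus overlapped between the groups, and relative to the mean of the 296 miRNAs it was higher in macrophages by 4.62 (limma, adjusted p = 0.000297). The assay for the plant miRNA ath-miR159a, which has no mouse target, did not cross in macrophage replicates 1 and 2 or in aorta replicate 4. It crossed at Ct 31.4 in macrophage replicate 3, and at Ct 27.9, 28.4 and 21.1 in aorta replicates 1, 2 and 3. In aorta replicate 3 the plant assay was therefore only 0.08, 0.20 and 0.96 cycles later than Y1, U87 and snoRNA135, and 5.33 to 8.54 cycles later than snoRNA429, snoRNA202 and MammU6. Its part in those values was not tested. In aorta replicates 1 and 2 and macrophage replicate 3 the plant assay was 4.86, 2.20 and 6.84 cycles later than the latest reference RNA. Without aorta replicate 3, 4 of the 6 reference RNAs passed the test described next, as with it. This keeps the other samples in which the plant assay crossed, so it does not show that the calls are free of that signal.

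To take out the overall signal, the Ct of each assay was subtracted from the average Ct of those 296 miRNAs in the same sample, which gives its level. A group difference in the miRNAs themselves would also move that average, and cannot be told apart from overall signal. A unit of this level is a log2 unit on the assumption of perfect doubling per cycle, and the doubling was not measured. On this scale the reference RNAs fell into those that differed between the sample types and those that were not shown to. snoRNA135, Y1, U87 and snoRNA202 were higher in macrophages, whereas MammU6 and snoRNA429 did not pass the test (limma across 435 assays, adjusted p under 0.05). That made 4 of 6, beside 55.9% of all assays called in the same fit, so the share is near the background. The median difference was 1.56 over the 6 reference RNAs and -0.17 over all 435 assays.

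The spliceosomal RNA MammU6 was at 10.73, 10.60 and 10.00 in macrophages, against 8.37, 10.44, 10.04 and 10.30 in aorta. Aorta replicate 1 was low and the other 3 aortas lay within the macrophage range. The difference was 0.66 ± 0.59 (SE), with an adjusted p of 0.385 and a 95% interval from -0.73 to 2.05, which does not show that U6 was equal. Without aorta replicate 1 the difference was 0.18.

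For snoRNA135 the levels were 5.19, 5.08 and 5.06 in macrophages, against 1.45, 1.52, 2.47 and 2.41 in aorta. The macrophage samples were close together and every aorta was lower by more than the range within either group. The difference, at 3.15 ± 0.42 (SE, adjusted p = 0.000622), stands for 8.87-fold on the assumption of doubling. snoRNA135 passed in 22 of 23 alternative settings, the exception being unscaled Ct.

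The levels of snoRNA202, the snoRNA placed within Rpl13, were 8.78, 8.62 and 8.85 in macrophages, against 7.39, 7.32, 7.59 and 7.36 in aorta. The groups did not overlap, and the values within each lay within 0.27 of each other. snoRNA202 was higher in macrophages by 1.33 ± 0.33 (SE, adjusted p = 0.0107). With the detection limit at Ct 28, which changes the miRNAs that set the mean, the difference was 0.30 (adjusted p = 0.518). With the mean of MammU6 and snoRNA202 as the scale it was 0.34 (adjusted p = 0.574). That scale contains snoRNA202 itself, so this value only restates its difference from MammU6 and is no separate check.

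snoRNA429, placed within Rps12, was at 7.02, 6.91 and 7.01 in macrophages, against 7.21, 7.31, 6.84 and 6.77 in aorta. All macrophage values lay inside the aorta range. Its difference was -0.05 ± 0.35 (SE, adjusted p = 0.906, 95% interval -0.86 to 0.76), and its sign turned in several settings given in the closing section. At the limit of Ct 28 it was lower in macrophages at -1.08 (adjusted p = 0.0362), and without scaling at -2.69 (adjusted p = 0.0333). The limit of Ct 28 changes the miRNAs that set the mean, and it lowered the differences of all the reference RNAs alike. The dependence on which miRNAs set the mean was therefore not particular to snoRNA429.

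U87, placed within Snhg6, was at 2.97, 2.66 and 3.20 in macrophages, against 1.08, 0.67, 1.70 and 1.13 in aorta, with no overlap. The difference was 1.80 ± 0.40 (SE, adjusted p = 0.00684). In the authors' deposited table, where levels are relative to MammU6 and snoRNA202, U87 was at a difference of 0.80 (adjusted p = 0.258) and the groups overlapped. At the limit of Ct 28 the difference was 0.77 (adjusted p = 0.189).

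Y1, the Ro60 partner, was at 2.96, 2.13 and 3.84 in macrophages, against 0.40, -1.52, 1.58 and 0.79 in aorta. Its groups did not overlap, but both were wide, and aorta replicate 2 was the lowest. The difference was 2.66 ± 0.80 (SE, adjusted p = 0.0245). It did not pass without macrophage replicate 1 (2.67, adjusted p = 0.0639) or replicate 3 (2.33, adjusted p = 0.0689). Without aorta replicate 2 the difference was 2.03 and without aorta replicate 3 it was 3.08, and both passed. At the limit of Ct 28 the difference was 1.63 (adjusted p = 0.148). In the authors' deposited table it was 1.67 (adjusted p = 0.195), and the groups overlapped. The 2 wells of Y1 in aorta replicate 2 read Ct 24.6 and 27.8, a gap of 3.22 cycles and the largest among the 35 pairs of repeated wells. Over all 35 pairs the median gap was 0.46 cycles. With only the later well of each pair, the difference of Y1 did not pass (2.89, adjusted p = 0.0511).

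**Figure D2:**
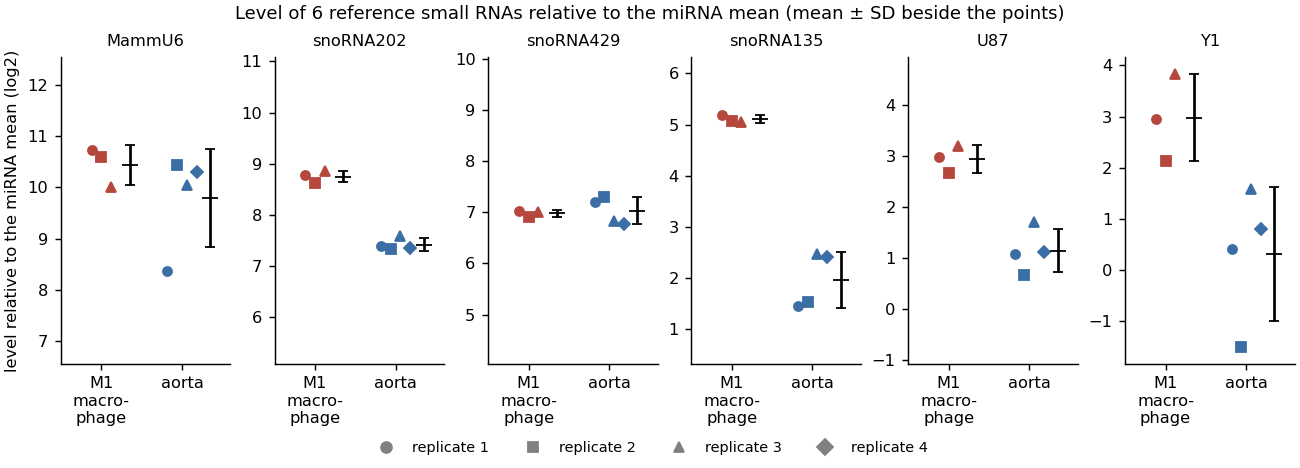
Level of each reference small RNA relative to the mean of 296 miRNAs (vertical axis in log2 units, every panel spanning 6 units) in M1 macrophages and aorta. Points are samples with the mean and SD beside them (n = 3 macrophage and 4 aorta samples). snoRNA135, snoRNA202, U87 and Y1 do not overlap between groups, while MammU6 and snoRNA429 do. The share of all assays without overlap on this scale was not counted.

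The exact permutation test over the samples, two-sided on the difference of group means, can give no p below 0.0286 with 3 and 4 samples, 1 in 35 arrangements. It gave 0.0286 for snoRNA135, snoRNA202 and U87, which was the smallest it can give. The exact permutation p of Y1 was 0.0571, since another arrangement of its wide values gave a difference as large. The exact permutation p was 0.371 for MammU6 and 0.743 for snoRNA429.

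Setting the reference RNAs against each other within a sample needs no miRNA mean. Of the 15 pairs, 6 differed between macrophages and aorta. The pairs are built from 6 RNAs and are not independent, and all 6 called pairs hold snoRNA135 or snoRNA429. A pair was counted only if it passed both in the fit scaled to the first and in the fit scaled to the second RNA, with p adjusted over all assays. In 7 pairs the groups did not overlap. The share of all assays whose groups did not overlap was not counted. In the fits scaled to a single reference RNA the share of assays called was 40.8% for MammU6, 68.9% for snoRNA135, 52.3% for snoRNA202, 56.2% for snoRNA429, 55.1% for U87 and 48.8% for Y1. Of the 5 other reference RNAs, 1 was called relative to MammU6, 4 relative to snoRNA135, 2 relative to snoRNA202, 4 relative to snoRNA429, 2 relative to U87 and none relative to Y1. In the fit scaled to Y1, 249 of 434 assays were under 0.05 before adjustment.

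The widest gap was between snoRNA135 and snoRNA429. snoRNA135 relative to snoRNA429 was at -1.83, -1.83 and -1.95 in macrophages, against -5.76, -5.78, -4.37 and -4.36 in aorta. The macrophage values almost coincided and the aortas formed 2 levels, replicates 1 and 2 below replicates 3 and 4. The change was 3.20 with a 95% interval from 1.84 to 4.56 (adjusted p = 0.00172, the larger of both fits), or 9.18-fold on the assumption of doubling. It passed in all 19 alternative settings tried for pairs. Those on detection limit, filter and variance model could change only the p and not the difference. snoRNA135 also rose relative to snoRNA202, at -3.58, -3.54 and -3.79 in macrophages, against -5.94, -5.80, -5.13 and -4.95 in aorta. That change of 1.82 (adjusted p = 0.0134) also passed in all 19 settings.

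Both snoRNAs placed in ribosomal protein genes parted from each other. snoRNA202 relative to snoRNA429 was at 1.76, 1.71 and 1.84 in macrophages, against 0.19, 0.02, 0.76 and 0.59 in aorta, with no overlap. The change was 1.38 (95% interval 0.47 to 2.29, adjusted p = 0.0198). The call was lost on leaving out macrophage replicate 1 or aorta replicate 1 (adjusted p = 0.0505 and 0.0567).

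snoRNA429 fell relative to U87, by 1.85 on the log2 scale. Its values were 4.05, 4.25 and 3.81 in macrophages, against 6.12, 6.63, 5.13 and 5.64 in aorta (adjusted p = 0.0223). The groups did not overlap, but the call was lost without macrophage replicate 1, macrophage replicate 3 or aorta replicate 1 (adjusted p = 0.0619, 0.0501 and 0.0592). MammU6 relative to snoRNA135 was at 5.54, 5.53 and 4.94 in macrophages, against 6.92, 8.92, 7.58 and 7.89 in aorta, and fell by 2.49 on the log2 scale (adjusted p = 0.0294). It passed in 10 of 19 alternatives, and leaving out any sample other than aorta replicate 1 gave an adjusted p from 0.0609 to 0.0924. snoRNA135 relative to U87 was at 2.22, 2.42 and 1.86 in macrophages, against 0.37, 0.85, 0.76 and 1.28 in aorta. This change of 1.35 (adjusted p = 0.0488) lay close to the threshold, passed in 5 of 19 alternatives, and was lost whichever sample was left out (adjusted p from 0.0520 to 0.150).

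The other 9 pairs did not pass in both fits, and their intervals do not show equality. snoRNA202 relative to U87 had the smallest difference of the 15 pairs, at -0.47 with a 95% interval from -1.58 to 0.65. snoRNA135 relative to Y1 was at 0.49, with an interval from -1.82 to 2.79. snoRNA429 relative to Y1 was at -2.71 with no overlap between groups and an interval from -5.14 to -0.28, but its larger adjusted p was 0.0587, and it passed in 6 of 19 alternatives. MammU6 relative to snoRNA202, the pair that scales the authors' table, was at 1.95, 1.98 and 1.16 in macrophages, against 0.98, 3.12, 2.45 and 2.94 in aorta. Its difference was -0.67 with an interval from -2.50 to 1.15, and in aorta alone it ranged over 2.14 cycles. Aorta replicate 1 set much of that range, which was 0.67 cycles without it. The difference was -1.14 without aorta replicate 1 and -0.40 without macrophage replicate 3 (adjusted p = 0.102 and 0.761).

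**Figure D3:**
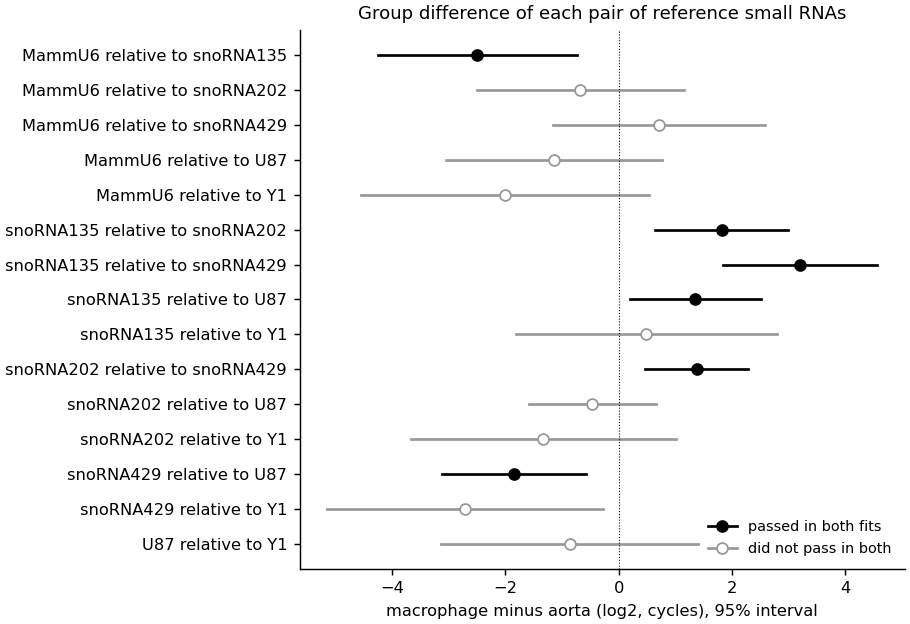
Change of each pair of reference small RNAs, macrophage minus aorta, on the log2 scale (horizontal axis), with 95% intervals from the wider of both fits (n = 3 macrophage and 4 aorta samples). Filled black points are the 6 pairs that passed in both fits; snoRNA135 relative to snoRNA429 lies farthest from 0, at 3.20.

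How steady a reference RNA was depended on whether spread was taken within or between the sample types. Over all 7 samples snoRNA429 had an SD of 0.19, and only 1 of the 296 miRNAs had a smaller one. The SD was 0.72 for snoRNA202, 0.80 for MammU6 and 1.02 for U87, against a median of 1.28 over the miRNAs. The value of MammU6 rested on aorta replicate 1, without which its SD was 0.29, below the 0.73 of snoRNA202 in the same setting. snoRNA135 and Y1, at 1.73 and 1.77, were above that median. Within the groups the order changed. snoRNA202 had the smallest pooled SD, 0.12, and none of the 296 miRNAs was below it. Without macrophage replicate 3, aorta replicate 1 or aorta replicate 4, left out singly, 2 miRNAs were below it. MammU6, at 0.78, was above the miRNA median of 0.69, and 175 miRNAs were steadier within the groups. This too came from aorta replicate 1: without it the pooled SD of MammU6 was 0.31, and 22 of 296 miRNAs were below it. The pooled SD of Y1 was 1.15, and 0.73 without aorta replicate 2. snoRNA202, with the tightest replicates of the 6, was called different between the groups. MammU6 was not called, either with aorta replicate 1 or without it (adjusted p = 0.755). These SDs are relative to the miRNA mean and no test was made of them. On other scales the SD of snoRNA429 over the 7 samples was larger, at 0.72 relative to MammU6 and snoRNA202 and 1.70 unscaled.

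**Figure D4:**
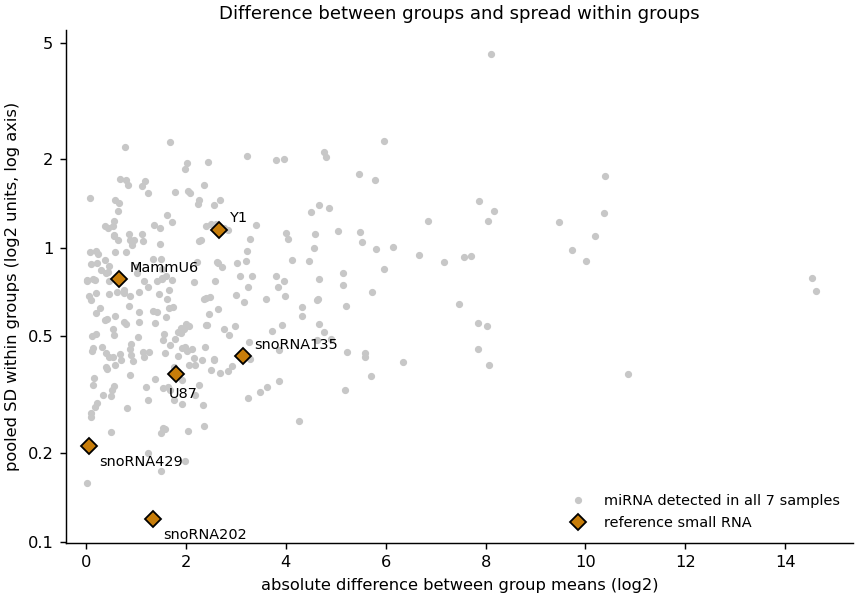
Absolute difference between the group means (horizontal axis, log2 units) and pooled SD within groups (vertical axis, log2 units on a log axis) of the 6 reference small RNAs (diamonds) and 296 miRNAs (grey points), over 3 macrophage and 4 aorta samples. snoRNA202 lies lowest, at 0.12, and snoRNA429 lies nearest the lower left corner among the reference RNAs.

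Measured only against each other, the reference RNAs ranked differently. The mean SD of a member's Ct differences with the other 5 was 0.83 for U87, 0.84 for snoRNA202, 1.20 for snoRNA135, 1.20 for MammU6, 1.29 for snoRNA429 and 1.33 for Y1. snoRNA429, the steadiest relative to the miRNA mean, was therefore next to last when set against the other reference RNAs. The last place of Y1 rested on aorta replicate 2, without which its mean SD was 0.87, against 1.13 for snoRNA429. For U87 and snoRNA202 the SD of their Ct difference over the 7 samples was 0.35 cycles, the smallest of the 15 pairs.

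Each reference RNA was also set against the 296 miRNAs, to name those whose Ct ran most nearly parallel to it. The measure was the SD over the 7 samples of the difference in Ct, which needs no scaling. For snoRNA135 these were let-7i at 0.27, miR-467c at 0.31 and miR-29b at 0.33 cycles, against a median of 1.78 over all miRNAs. snoRNA202 was closest to miR-181a at 0.21, miR-29a* at 0.25 and miR-15a at 0.26 cycles. For snoRNA429 they were miR-24-2* at 0.17, miR-28 at 0.20 and miR-24 at 0.22 cycles. U87 ran with miR-467a at 0.29, miR-669a at 0.31 and miR-29a* at 0.32 cycles. RefSeq places the hairpins of miR-467a, miR-467c and miR-669a inside the gene Sfmbt2, so the U87 and snoRNA135 neighbours include members of that cluster, whose mature miRNAs can be near-identical, so that cross-detection by the assays was not tested. MammU6 and Y1 had no partner as close. Aorta replicate 1 was low for MammU6 and aorta replicate 2 for Y1, and the search was not repeated without those samples. The nearest to MammU6 was miR-449c at 0.48 cycles, followed by miR-27a* at 0.52 and miR-191 at 0.53, and the nearest to Y1 was miR-879* at 0.56, followed by miR-709 at 0.80 and miR-98 at 0.81. The points share their samples, and no test was made.

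The mature sequences of some of these neighbours, from RefSeq for GRCm38.p6, are shown because they identify the RNAs whose Ct ran most nearly parallel to a reference. Capitals mark the seed, bases 2 to 8. let-7a, from the list of miRNAs used as normalisers, is added since it shares its seed with let-7i. Older assay names were read as the main strand, and miR-24 and miR-24-2* are opposite strands of 1 hairpin, although miR-24 also arises from a second hairpin.
let-7i: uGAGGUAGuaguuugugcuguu
let-7a: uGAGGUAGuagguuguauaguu
miR-29b: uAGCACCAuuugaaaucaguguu
miR-181a: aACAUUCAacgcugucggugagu
miR-24: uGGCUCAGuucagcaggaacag
miR-24-2*: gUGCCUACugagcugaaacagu
miR-191: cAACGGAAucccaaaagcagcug

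miRNAs that are often used as normalisers were read on the same scale. Of 11 listed, 10 were tested: macrophages had more of 5, less of 1, and the other 4 missed the threshold, beside 55.9% of all assays called. The median difference was 0.86. let-7a had levels of 6.11, 5.97 and 5.97 in macrophages, against 2.03, 1.68, 3.36 and 4.19 in aorta, higher by 3.20 (adjusted p = 0.00511). miR-423-5p was higher by 4.87 and miR-186 fell by 1.25 on the log2 scale. miR-24, at 9.42, 9.20 and 9.20 in macrophages, against 9.40, 10.01, 9.13 and 9.45 in aorta, had the smallest SD of the list, 0.30, against 0.19 for snoRNA429. miR-16 (-0.41), miR-26b (-0.37) and miR-191 (0.56) also did not pass.

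Which reference RNA was used decided how many miRNAs were called in each direction. Relative to snoRNA429, 107 miRNAs were higher in macrophages and 133 lower, beside 107 and 132 relative to the miRNA mean. Relative to MammU6 there were 52 higher and 124 lower, and relative to snoRNA202 50 and 175. The counts were 37 and 200 relative to U87, 12 and 283 relative to snoRNA135, and 11 and 201 relative to Y1. With MammU6 and snoRNA202 together, the scale of the authors' deposited table, 55 were higher and 147 lower, and 46.7% of assays were called. The median difference of the miRNAs was -0.16 relative to snoRNA429 and -3.36 relative to snoRNA135. These fits share all samples, and differ only by the value taken from each.

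**Figure D5:**
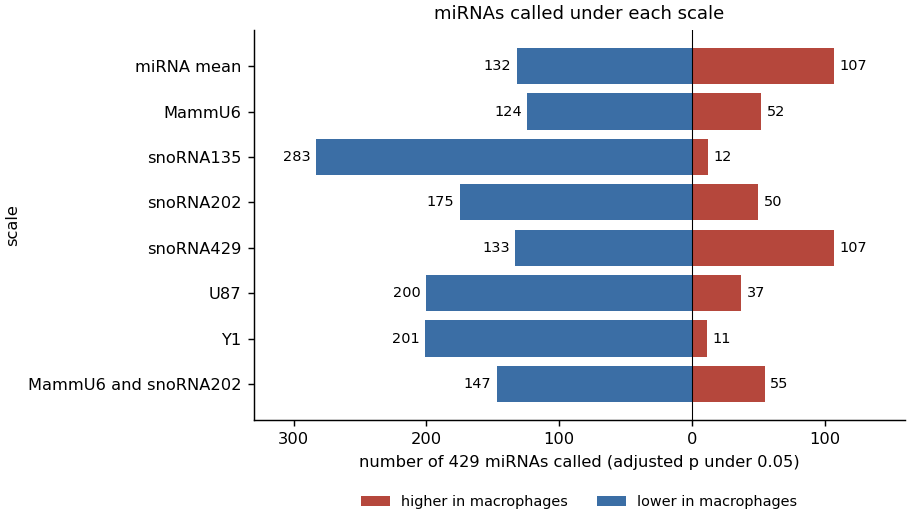
Number of tested miRNAs called higher (right) or lower (left) in macrophages than in aorta (limma, adjusted p under 0.05; n = 3 macrophage and 4 aorta samples) under each scale. The higher calls run from 11 relative to Y1 to 107 relative to snoRNA429 or the miRNA mean.

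Across all 6 reference RNAs used singly, 9 miRNAs were called higher and 121 lower under every one of them, 44 were called under none, and 9 were called in opposite directions under different ones. All 9 of these were lower relative to snoRNA135 and higher relative to snoRNA429. A further 141 miRNAs were lower relative to snoRNA135 but not called relative to snoRNA429. miR-155, which promotes inflammatory signalling, was higher under all 6, from 4.02 relative to snoRNA135 to 7.22 relative to snoRNA429. miR-223 was higher by 4.67 relative to snoRNA429 (adjusted p = 0.000148), 3.97 relative to MammU6, 3.29 relative to snoRNA202 and 2.82 relative to U87. Relative to snoRNA135 and to Y1 it was at 1.47 and 1.96 and did not pass (adjusted p = 0.126 and 0.2004). The same held for miR-146a, which dampens inflammatory signalling, at 1.41 relative to snoRNA135 and 1.90 relative to Y1 (adjusted p = 0.143 and 0.219), against 4.61 relative to snoRNA429. miR-143 was lower under all 6, from -14.57 relative to snoRNA429 to -17.77 relative to snoRNA135.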

How the data were processed

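Small RNA in total RNA of 3 M1 macrophage cultures and 4 aortas was measured by PCR, on RNA from a mirVana kit, per the labels' protocols. The authors' deposited raw values are Ct per well, with uncrossed wells at 40. Neither the labels nor the file headers name the instrument, the threshold setting or any preamplification. Differences in Ct, a log2 measure, fill the authors' deposited normalized table. Its 519 assays equalled Ct minus the mean of the 4 MammU6 and snoRNA202 wells, with a largest departure of 5e-05 cycles, and it lists U87 and Y1 among the reference RNAs.

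Repeated wells (5 of the 6 reference RNAs had 2) were averaged, and Ct past 35 was set to 35. An assay was tested if detected in at least 3 samples of a group, 435 in all with the plant assay left out. Groups were compared with limma 3.58.1 (lmFit, eBayes, group as the only term, 2-sided, Benjamini-Hochberg adjustment over all assays, threshold 0.05) in R 4.3.3. Tables and plots used Python 3.11.15, pandas 2.3.3 and matplotlib 3.10.9. The fit was also run on simulated data with equal, independent noise for every assay. The assays here differ in spread, so no result rests on that run. The number of samples and the gaps between repeated wells limit the precision. The rule for named RNAs gave all 6 references, the plant assay, the 3 miRNAs nearest to each reference, 11 listed normalisers, marker miRNAs, and miR-155, miR-146a and miR-223. The members and lists were chosen with earlier results of these data known. Alternatives covered scaling, detection limit, filter, wells, variance model, array weights, a replicate block and leaving out each sample.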

Additional observations from a re-analysis of the deposited data

Results flagged for a closer look

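In aorta, the level of MammU6 relative to snoRNA429 was 1.17 in replicate 1, against 3.13, 3.21 and 3.53 in replicates 2 to 4. The gap of replicate 1 to its nearest neighbour took up 0.831 of the range, past the 95% limit of Dixon's test for 4 samples. Of 21 sets of aorta values examined this was the one past the limit, and chance alone passes about 1 set in 20. MammU6 relative to the miRNA mean had a gap of 0.808 in the same sample. The 2 wells of MammU6 in aorta replicate 1 read Ct 15.7 and 14.5, a gap of 1.19 cycles, and were both later than the wells of the other 3 aortas.

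The plant miRNA assay ath-miR159a crossed in 4 of 7 samples, earliest at Ct 21.1 in aorta replicate 3. In that sample 404 of the 517 mouse miRNA assays crossed later than the plant assay or not at all. The corresponding numbers were 246 in macrophage replicate 3, and 171 and 219 in aorta replicates 1 and 2.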

How the results depend on the processing

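The number of reference RNAs called was 4 of 6. It was 1 without scaling (snoRNA429, lower in macrophages) and 1 with scaling to MammU6 and snoRNA202 (snoRNA135, higher). On that scale MammU6 and snoRNA202 are set partly against themselves, so their values only restate the difference between them. With a limit of Ct 28 the number called was 2 (snoRNA135, higher, and snoRNA429, lower). It was 5 with quantile normalization, 3 with the later well of each pair, and 3 to 4 when each sample was left out. It was 3 with the replicate block, where snoRNA202 was at 1.31 (adjusted p = 0.0817). With scaling to MammU6 and snoRNA202, 46.7% of all assays were called, against 55.9% in the main fit. For the other settings in this list that share was not counted. The count could not be made on the deposited table, which lists 2 of the 6. The pairs called were 6 of 15, 2 to 5 when each sample was left out (2 without macrophage replicate 1, 3 without macrophage replicate 3 and 3 without aorta replicate 1), and 4 with the replicate block, where snoRNA202 relative to snoRNA429 had an adjusted p of 0.0724. Deviations of same-numbered samples correlated at 0.110, 0.0077 and -0.0738, so the numbers were not taken as pairs. Leaving out replicate 3 of both groups, a setting chosen after seeing the data, gave 4 reference RNAs and 4 pairs. SDs within groups and between reference RNAs with each sample left out were also added after seeing the data. Signs turned without scaling for MammU6 (-1.98), snoRNA202 (-1.31) and U87 (-0.84). MammU6 was also at -0.34 with scaling to MammU6 and snoRNA202, where its value is by construction the mirror of the 0.34 of snoRNA202. With a limit of Ct 28 MammU6 was at -0.38, and with quantile normalization it passed at 2.60. snoRNA429 was at 0.0249 with the miRNA median, 0.372 with quantile normalization and 0.0659 with a limit of Ct 38, and ran from -0.148 to 0.0333 when each sample was left out. No pair changed sign among 285 values, of which 250 kept their side of the threshold, 29 lost it and 6 gained it. The detection limit, the filter and the variance model cannot change the difference of a pair, only its p. In those settings the sign was fixed in advance. The causes were not tested. Leaving out samples leaves fewer to test.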
